A study of Mus musculus with 4 samples.

Results

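Cytochromes P450 are haem enzymes of the endoplasmic reticulum that oxidise small molecules, and those of families 1 to 3 handle most drugs, plant chemicals and pollutants, together with steroids, fatty acids and vitamin D. They were taken as every probe set whose platform annotation gave exactly 1 gene symbol of the form Cyp1, Cyp2 or Cyp3 followed by a subfamily letter and a number. The rule used no expression value. It found 52 of the 45101 probe sets on the array, for 43 of the 18194 genes with such a probe set. Of these genes, 3 belong to family 1, 35 to family 2 and 5 to family 3.

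Liver RNA was measured in male C57BL/6J mice, aged 8 to 12 weeks when the diets began, on 4 Affymetrix arrays of 1 RNA pool each. The groups were a high-fat diet with clodronate liposomes, a high-fat diet with PBS (phosphate-buffered saline), a low-fat diet with clodronate liposomes and a low-fat diet with PBS. The diets gave 45% (high-fat) or 10% (low-fat) of energy as fat for 20 weeks, with palm oil in place of lard, and the injections were made into the peritoneal cavity in the last week. Clodronate liposomes kill the phagocytes that swallow them, which in liver are chiefly the Kupffer cells. Each pool held 10 mice on the high-fat diet and 8 on the low-fat diet, 36 mice in all. With 1 array per group no spread between mice was measured, and with PBS in place of empty liposomes the effects of liposomes, of clodronate and of phagocyte loss cannot be told apart.

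In the liver these enzymes sit mainly in hepatocytes, most of them around the central vein. Their genes answer to ligand-activated receptors: Ahr controls the Cyp1 genes, the constitutive androstane receptor (CAR, gene Nr1i3) is the classical activator of Cyp2b10 after phenobarbital, and the pregnane X receptor (PXR, gene Nr1i2) controls Cyp3a11. In mice a further layer is sex: the pulses of growth hormone in males, acting through STAT5b, keep a group of female-predominant P450 genes low, among them Cyp2b9, Cyp2b10, Cyp2b13, Cyp3a16 and Cyp3a44. Inflammatory cytokines lower many hepatic P450 transcripts. These points are background and were not measured here.

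The promoter windows of 4 genes are shown: those of Cyp2b9, Cyp2b10 and Cyp1a2, whose diet differences are described in most detail, and that of Cyp2b13, whose window nearly equals that of Cyp2b9. RefSeq windows (build GRCm38.p6), 250 bases before to 50 after the annotated start, were found for 35 of the 43 genes. The 4 genes and the motifs were picked after the values and sequences had been seen. Cyp2b9 lies at chr7:26173159-26173458, Cyp2b13 at chr7:26061245-26061544 and Cyp2b10 at chr7:25897408-25897707, each on the plus strand. Cyp1a2 lies at chr9:57683606-57683905 on the minus strand. Capitals mark the bases at which the windows of Cyp2b9 and Cyp2b13 differ, and, in Cyp2b10 and Cyp1a2, every ATAAAA on either strand.
Cyp2b9: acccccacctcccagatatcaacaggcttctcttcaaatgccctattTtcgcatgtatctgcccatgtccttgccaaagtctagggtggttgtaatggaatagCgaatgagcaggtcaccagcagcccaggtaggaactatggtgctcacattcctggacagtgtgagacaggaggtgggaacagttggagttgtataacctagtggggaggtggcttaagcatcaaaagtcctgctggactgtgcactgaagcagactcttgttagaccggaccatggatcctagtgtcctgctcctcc
Cyp2b13: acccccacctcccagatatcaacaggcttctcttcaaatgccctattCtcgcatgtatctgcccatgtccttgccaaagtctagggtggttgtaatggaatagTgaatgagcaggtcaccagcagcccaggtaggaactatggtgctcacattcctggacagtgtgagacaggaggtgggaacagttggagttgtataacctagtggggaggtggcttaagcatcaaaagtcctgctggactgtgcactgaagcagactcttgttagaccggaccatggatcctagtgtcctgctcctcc
Cyp2b10: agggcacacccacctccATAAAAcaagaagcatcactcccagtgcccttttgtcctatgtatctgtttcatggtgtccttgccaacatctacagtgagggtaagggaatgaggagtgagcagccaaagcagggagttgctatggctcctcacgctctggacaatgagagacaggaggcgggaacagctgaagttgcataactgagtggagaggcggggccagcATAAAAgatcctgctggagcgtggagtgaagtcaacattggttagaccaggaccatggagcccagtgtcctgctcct
Cyp1a2: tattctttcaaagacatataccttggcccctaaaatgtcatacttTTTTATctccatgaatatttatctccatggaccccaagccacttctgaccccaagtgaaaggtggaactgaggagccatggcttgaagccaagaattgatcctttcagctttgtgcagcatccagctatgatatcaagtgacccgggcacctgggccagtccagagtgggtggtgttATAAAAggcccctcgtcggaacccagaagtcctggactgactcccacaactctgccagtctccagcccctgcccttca

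The windows of Cyp2b9 and Cyp2b13 were identical at 298 of 300 bases (99.3%). With positions counted from 1 at the 5′ end and the Cyp2b9 base first, the differences were T48C and C104T. The window of Cyp2b10 shared 72.9% of aligned positions with either of them. ATAAAA, searched on both strands as a TATA-like motif, began 27 bases before the annotated start in Cyp2b10 and 28 before it in Cyp1a2, with a further match in each window. It was in 12 of the 38 windows of these genes, against 18.5% of all 32851 windows in the table. AGGTCA, the half-site of nuclear receptors, lay 138 bases before the start in both Cyp2b9 and Cyp2b13 and in neither other window, and was in 13 of the 38 windows against 16.3% of all windows. GCGTG, the core that Ahr and its partner recognise, occurred at 2 positions in Cyp2b10 and in no other window shown, that of Cyp1a2 included. It was in 8 of the 38 windows against 32.4% of all windows. The matches shown did not overlap one another. They are descriptions of letters and not of binding.

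Values are GCRMA log2 expression, in which 1 unit is 2-fold. Values below 4 were taken as too dim to measure, and set to 4 before differences were formed, which makes any difference from a dim value a lower bound. Of the 52 probe sets, 32 (28 genes) reached 4 on at least 1 array, which are called measured here, and 29 of these did so on all 4 arrays. The other 3 were those of Cyp2b9, Cyp2b10 and Cyp2d40, and they entered through the arrays on which they were high. Cyp2d40 lay at the limit, at 4.07 and 4.13 in the high-fat clodronate and PBS pools, against 3.95 and 3.92 in the low-fat clodronate and PBS pools. The remaining 20 probe sets stayed between 1.21 and 3.76 on every array and covered 15 genes with no measured probe set. These include Cyp1a1 and Cyp1b1, the other Ahr-controlled members of family 1, which were below 4 on all arrays, as were Cyp2b13, Cyp2b19, Cyp2s1, Cyp3a16 and Cyp3a44. Probe sets differ in how they bind, so levels were not compared between genes.

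**Figure D1:**
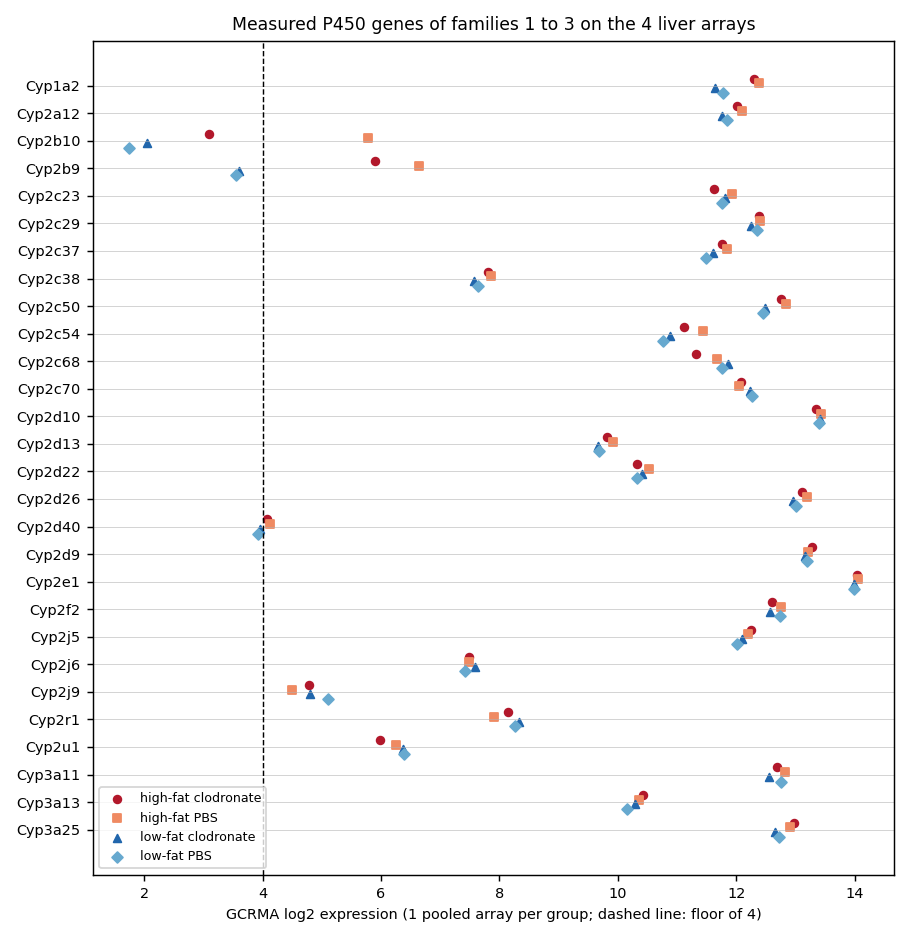
GCRMA log2 expression (horizontal axis) of the 28 measured P450 genes, each by its probe set with the highest mean, with 1 point per pooled array. The 4 points of most genes lie close together, while Cyp2b9 and Cyp2b10 spread across the dashed line at 4. Cyp1a2 has both high-fat points to the right of both low-fat points, an order also seen in other genes, among them Cyp2a12 and Cyp2c50 with smaller gaps.

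The high-fat diet was accompanied by higher signal of Cyp2b9, Cyp2b10 and Cyp1a2, and by small positive differences of most other measured genes. The first of these, Cyp2b9, is a steroid-hydroxylating enzyme that adult female mouse liver expresses far more than male liver. Its signal was 5.90 in the high-fat clodronate pool and 6.64 in the high-fat PBS pool, against 3.60 in the low-fat clodronate pool and 3.54 in the low-fat PBS pool. Both high-fat arrays were above 4 and both low-fat arrays below it. The diet difference was therefore at least 3.72-fold with clodronate and at least 6.23-fold with PBS.

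Cyp2b10, a standard reporter of CAR activity in mouse liver, has 3 probe sets. The one with the highest mean was at 3.10 in the high-fat clodronate pool and 5.77 in the high-fat PBS pool, against 2.04 in the low-fat clodronate pool and 1.75 in the low-fat PBS pool. Only the high-fat PBS array was above 4, so the diet difference was at least 3.42-fold with PBS and could not be measured with clodronate. The other 2 probe sets stayed below 4 throughout, at 3.29 and 2.37 in the high-fat clodronate pool, 3.76 and 3.50 in the high-fat PBS pool, 2.47 and 1.21 in the low-fat clodronate pool, and 2.97 and 1.73 in the low-fat PBS pool. All 3 probe sets thus had their highest value in the high-fat PBS pool and their second highest in the high-fat clodronate pool, although values below 4 are too dim to rank with confidence.

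The probe set of Cyp2b13, whose promoter window nearly equals that of Cyp2b9, was at 1.97 in the high-fat clodronate pool and 1.68 in the high-fat PBS pool, against 1.91 in the low-fat clodronate pool and 1.61 in the low-fat PBS pool. Cyp2b19 was likewise dim, between 1.68 and 1.95. The Cyp2b genes are close relatives in 1 cluster, and the Cyp2b10 probe set above carries the suffix of sets whose probes can match several transcripts, so which copy gave the signal is uncertain. Of the 5 listed female-predominant P450 genes with a probe set, Cyp2b9 and Cyp2b10 were measured and Cyp2b13, Cyp3a16 and Cyp3a44 were below 4 in all pools.

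**Figure D2:**
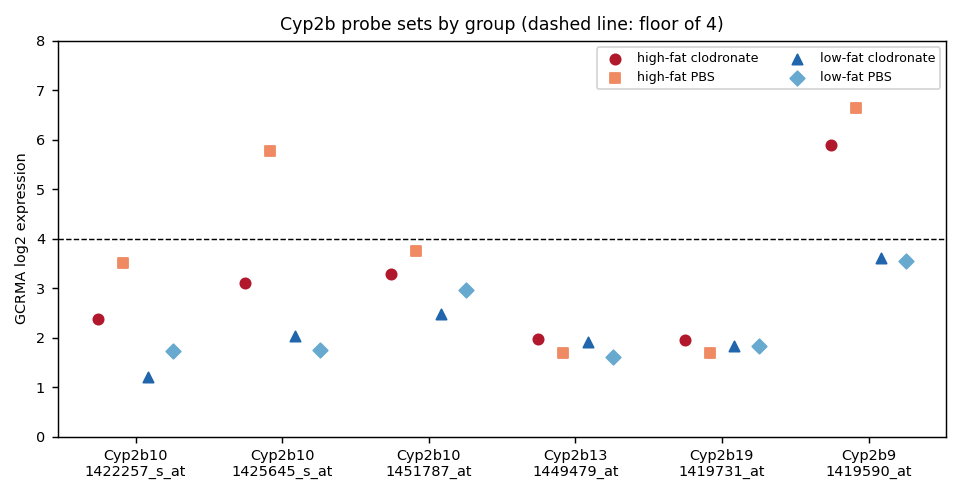
GCRMA log2 expression (vertical axis) of the 6 Cyp2b probe sets, with 1 point per pooled array and a dashed line at 4. Cyp2b9 is above the line on both high-fat arrays and 1 Cyp2b10 probe set on the high-fat PBS array, while the probe sets of Cyp2b13 and Cyp2b19 are below it everywhere.

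Cyp1a2, which oxidises caffeine and aromatic amines and is a constitutive hepatocyte target of Ahr, had similar diet differences with both injections. It was at 12.31 in the high-fat clodronate pool and 12.38 in the high-fat PBS pool, against 11.65 in the low-fat clodronate pool and 11.77 in the low-fat PBS pool. Both high-fat arrays were above both low-fat arrays, by 1.58-fold with clodronate and 1.52-fold with PBS.

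Cyp2c54, an epoxygenase of arachidonic and linoleic acid, was at 11.11 in the high-fat clodronate pool and 11.44 in the high-fat PBS pool, against 10.88 in the low-fat clodronate pool and 10.76 in the low-fat PBS pool. The high-fat arrays were again the higher ones, by 1.17-fold with clodronate and 1.60-fold with PBS. Its relatives Cyp2c50 and Cyp2c37 showed the same order of the 4 pools. Their log2 differences were 0.27 and 0.16 with clodronate and 0.38 and 0.36 with PBS.

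Cyp2j9, a fatty acid hydroxylase first described in mouse brain, was lower on the high-fat diet. It was dim, at 4.79 in the high-fat clodronate pool and 4.50 in the high-fat PBS pool, against 4.80 in the low-fat clodronate pool and 5.10 in the low-fat PBS pool. The PBS pools were 1.51-fold apart, lower on the high-fat diet, and the clodronate pools differed by -0.02 on the log2 scale.

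At 2-fold, 1 of the 32 measured probe sets (Cyp2b9) was higher and 0 were lower in the high-fat than in the low-fat clodronate pool, where 0.38% of all 16298 measured probe sets were higher and 0.853% lower. With PBS, 2 (Cyp2b9 and Cyp2b10) were higher and 0 lower, against 0.362% and 0.27% of all. At 1.5-fold the clodronate pools gave 2 higher (Cyp2b9 and Cyp1a2) and 0 lower, against 1.66% and 5.71%. The PBS pools gave 4 higher (Cyp2b9, Cyp2b10, Cyp2c54 and Cyp1a2) and 1 lower (Cyp2j9), against 2.32% and 1.53%. These are counts from single arrays with no replicate check, and Cyp2b9 and Cyp2b10, measured through the arrays on which they were high, had to differ.

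The direction of the small differences leaned the same way. With clodronate, 21 of the 32 probe sets were above 0 and 10 below, whereas 32.5% of all measured probe sets were above and 64.9% below. With PBS, 27 were above 0 and 5 below, whereas 48.6% of all were above and 48.6% below. After centring each array on its median the counts were 26 and 5 with clodronate and 27 and 5 with PBS. After quantile normalization they were 23 and 8 with clodronate and 25 and 6 with PBS. The medians of all measured probe sets were then 0.02 with clodronate and 0.00 with PBS after centring, and 0.00 and -0.005 after quantile normalization. Shares of all above and below 0 were not counted after scaling. The median difference of the 32 was 0.13 with clodronate and 0.17 with PBS, beside -0.09 and 0.00 over all measured probe sets. By gene, 18 of 28 were above 0 in both diet comparisons and 5 below 0 in both, against 19.6% and 35.2% of all measured probe sets. Cyp2b9, Cyp2b10 and Cyp2d40 reached 4 on high-fat arrays alone. After the floor they could not be below 0 in a diet comparison, and with PBS all of them had to be above 0. The 2 comparisons use different arrays, but probe sets of 1 pool are not independent.

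By subfamily, the 8 measured Cyp2d probe sets, among them Cyp2d9, the male-predominant testosterone 16-alpha hydroxylase, had a median of 0.10 with clodronate and 0.16 with PBS. The 8 Cyp2c probe sets had 0.15 and 0.20, and the 3 Cyp3a probe sets 0.13 and 0.19. The 5 Cyp2j probe sets, of Cyp2j5, Cyp2j6 and Cyp2j9, had 0.14 and 0.09. For comparison, the 8 measured probe sets of the Cyp4 fatty acid hydroxylases had medians of 0.06 and 0.09. A difference between these subfamilies was not tested.

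**Figure D3:**
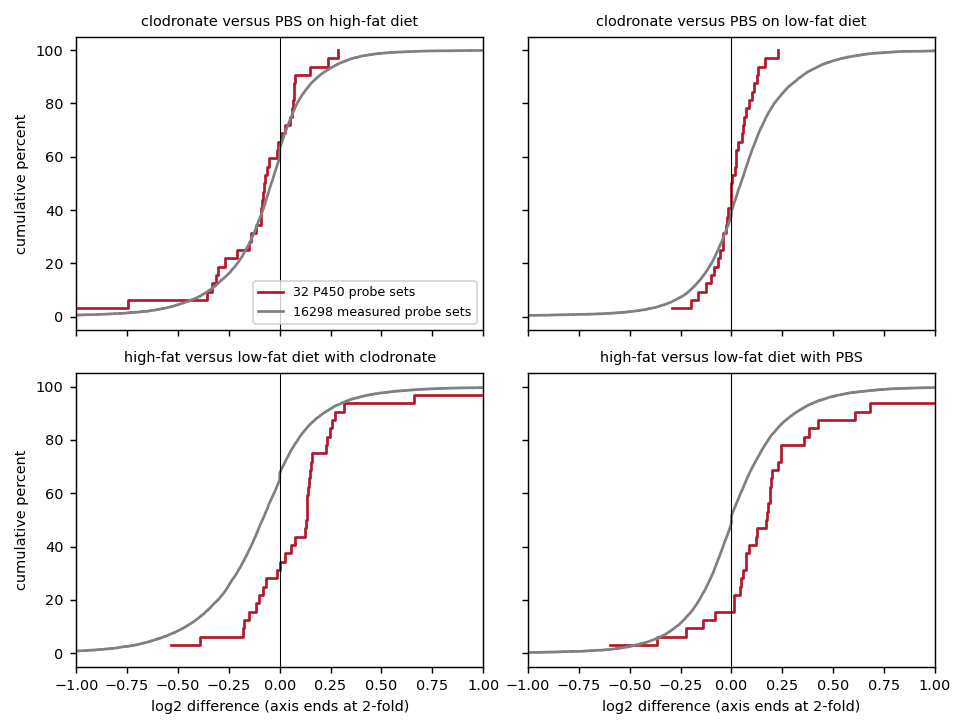
Cumulative percent (vertical axis) of log2 differences (horizontal axis, which ends at 2-fold) for the 32 measured P450 probe sets and all 16298 measured probe sets, in 4 comparisons. In both diet panels the P450 line runs to the right of the line of all probe sets over most of its length, with medians of 0.13 and 0.17, and in the clodronate panels the lines cross near 0.

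Other well-known members differed by less than 1.5-fold between the diets. Cyp2e1, which oxidises ethanol and paracetamol, was at 14.04 in the high-fat clodronate pool and 14.06 in the high-fat PBS pool, against 13.99 in the low-fat clodronate pool and 13.98 in the low-fat PBS pool. Cyp3a11, the main PXR-controlled steroid and drug oxidase of mouse liver, was at 12.68 and 12.83 in the high-fat clodronate and PBS pools, against 12.55 and 12.75 in the low-fat clodronate and PBS pools. Neither gene was 1.5-fold apart in any pair.

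Cyp2c29, a CAR-responsive enzyme of the Cyp2c cluster, was at 12.39 and 12.40 in the high-fat clodronate and PBS pools, against 12.26 and 12.36 in the low-fat clodronate and PBS pools. Cyp2d9 was at 13.28 and 13.21 in the high-fat clodronate and PBS pools, against 13.16 and 13.20 in the low-fat clodronate and PBS pools. Both stayed under 1.5-fold in every pair. Cyp2f2, which activates naphthalene and marks periportal hepatocytes, was at 12.60 and 12.75 in the high-fat clodronate and PBS pools, against 12.57 and 12.74 in the low-fat clodronate and PBS pools, so that its diet differences were 0.03 and 0.01.

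A few genes had negative diet differences with both injections. Cyp2c70, which makes the muricholic acids of mouse bile, was at 12.09 and 12.04 in the high-fat clodronate and PBS pools, against 12.24 and 12.26 in the low-fat clodronate and PBS pools. Cyp2r1, a vitamin D 25-hydroxylase, was at 8.14 and 7.90 in the high-fat clodronate and PBS pools, against 8.32 and 8.26 in the low-fat clodronate and PBS pools. Both were lower on each high-fat array than on either low-fat array, by less than 1.5-fold. The largest such difference under 1.5-fold was that of Cyp2c68, which was at 11.33 and 11.68 in the high-fat clodronate and PBS pools, against 11.86 and 11.76 in the low-fat clodronate and PBS pools. Cyp2u1, a hydroxylase of long-chain fatty acids, and Cyp2j9 were the other genes below 0 in both diet comparisons, Cyp2u1 with -0.39 with clodronate and -0.14 with PBS.

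**Figure D4:**
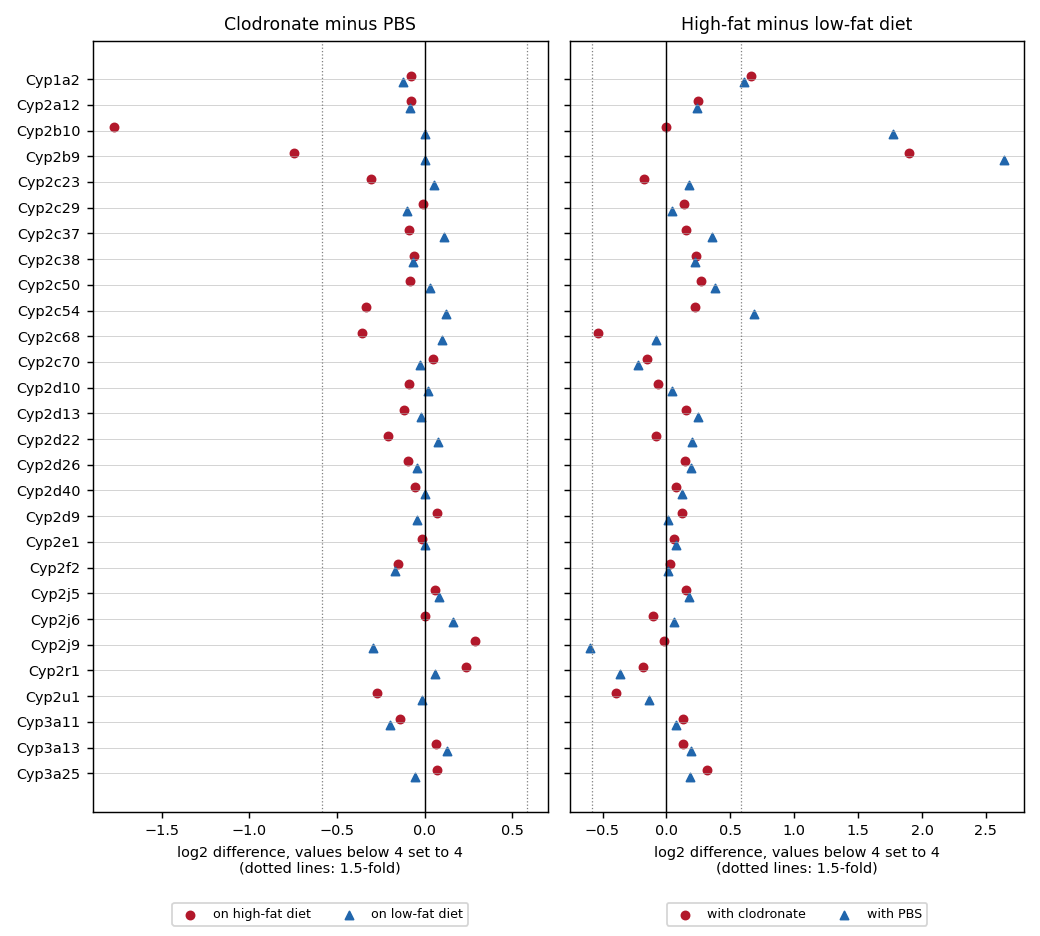
Log2 differences (horizontal axes) of the 28 measured P450 genes after values below 4 were set to 4, clodronate minus PBS on the left and high-fat minus low-fat diet on the right, with 1 point per pair of arrays and dotted lines at 1.5-fold. Cyp2b9, Cyp2b10, Cyp1a2, Cyp2c54 and Cyp2j9 pass a dotted line in at least 1 pair, and the other 23 genes stay between the lines.

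With clodronate, macrophage transcripts were far lower and most P450 signals differed little. Of 16 listed Kupffer cell and macrophage genes, all measured, 14 were at least 2-fold lower with clodronate on the high-fat diet and 15 on the low-fat diet, with median log2 differences of -3.24 and -3.82. Clec4f, a lectin specific to Kupffer cells in mice, was at 1.88 in the high-fat clodronate pool against 9.42 in the high-fat PBS pool, and at 1.92 in the low-fat clodronate pool against 9.40 in the low-fat PBS pool. The linear signals of the 16 genes summed to 475 in the high-fat clodronate pool and 7020 in the high-fat PBS pool, and to 437 in the low-fat clodronate pool and 7584 in the low-fat PBS pool. Over the same pairs the P450 medians were -0.08 and 0.00, beside -0.04 and 0.05 for all measured probe sets. In whole liver, fewer cells of a type and less RNA per cell cannot be told apart.

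The exceptions were Cyp2b10 and Cyp2b9 on the high-fat diet. The values above put Cyp2b10 at least 3.42-fold lower with clodronate, and Cyp2b9 1.67-fold lower. Cyp2b10 reached 4 on the high-fat PBS array alone. After the floor it therefore had to be lower with clodronate on this diet, and its place in the counts below is a description. On the low-fat diet both genes were below 4 with either injection, so that no clodronate difference could be measured there, and whether the effect differs between the diets was not tested. Macrophage transcripts were lower in both clodronate pools, and their part in the Cyp2b values was not tested. At 2-fold, 0 of the 32 probe sets were higher and 1 (Cyp2b10) was lower with clodronate on the high-fat diet, where 0.11% of all measured probe sets were higher and 0.657% lower. On the low-fat diet 0 were higher and 0 lower, against 0.252% and 0.515% of all. At 1.5-fold the high-fat pair gave 0 higher and 2 lower (Cyp2b10 and Cyp2b9), against 0.718% and 2.95%, and the low-fat pair 0 and 0, against 2.44% and 1.38%.

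The small clodronate differences were counted by direction. On the high-fat diet 11 of the 32 probe sets were above 0 and 21 below, against 36.7% and 59.7% of all measured probe sets. On the low-fat diet 16 were above 0 and 13 below, against 60.3% and 37.7% of all. That order turned to 10 above and 19 below after centring each array on its median, and to 12 and 16 after quantile normalization. The median of all measured probe sets in this pair, 0.05 before, was 0.00 after either scaling. Shares of all above and below 0 were not counted after scaling. By gene, 4 of 28 were above 0 on both diets, 9 below 0 on both, 12 of opposite sign and 3 at 0 on one diet, while 21.2% of all measured probe sets were above 0 on both and 21.7% below 0 on both. Of the 12, 8 were below 0 on the high-fat and above 0 on the low-fat diet. Cyp3a11 and Cyp2f2 were among the 9, with log2 differences of -0.14 and -0.15 on the high-fat diet and -0.20 and -0.17 on the low-fat diet.

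The array with the highest signal was that of the high-fat PBS pool for 18 of the 28 genes, the high-fat clodronate pool for 4, the low-fat clodronate pool for 3 and the low-fat PBS pool for 3. Cyp2b9, Cyp2b10 and Cyp2d40, measured through high-fat arrays alone, could be highest only in a high-fat pool. Of all measured probe sets, 22.4% were highest in the high-fat PBS pool, 16.5% in the high-fat clodronate pool, 38.2% in the low-fat clodronate pool and 22.9% in the low-fat PBS pool. The high-fat PBS pool had the highest signal for 14 of the 28 genes after centring, against 20.9% of all, and for 14 after quantile normalization, against 19.8% of all. In all, 5 genes were 1.5-fold or more apart in at least 1 pair, against 12.7% of all measured probe sets.

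Where a gene had several measured probe sets, these did not always run together. Both probe sets of Cyp2j5 were above 0 in all 4 comparisons. For Cyp2d13, a pseudogene in RefSeq, the second probe set had log2 differences of -0.12 with diet in the clodronate pools and 0.42 in the PBS pools, where the first had 0.15 and 0.25. The second probe set of Cyp2d22 was at 0.13 with diet in the clodronate pools, where the first was at -0.08, and that of Cyp2j6 was at 0.26, where the first was at -0.10.

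An additive limma model of diet and injection, fitted to all 4 arrays, tested each factor as a mean over the levels of the other. It leaves 1 residual degree of freedom and used the deposited values without the floor. With 1 array per group, that residual is the difference in the clodronate effect between the diets. The p-values therefore speak of departure from additivity, moderated over all probe sets. Part of it may be technical, and it is not the scatter among mice. For diet, 0 of the 32 P450 probe sets passed a Benjamini-Hochberg adjusted p of 0.05, as did 0% of all 16298 in either direction. At an unadjusted p under 0.05, 4 of the 32 were higher and 0 lower, against 9.23% of all in either direction. The 4 were Cyp2b9, Cyp2b10, Cyp1a2 and Cyp2c50, of which the Cyp2b genes had to differ to be measured. Cyp2b9 had an estimated log2 difference of 2.70 (SE 0.235, 95% interval 2.02 to 3.37, limma adjusted p = 0.415). Cyp1a2 had 0.63 (SE 0.110, 95% interval 0.32 to 0.95, limma adjusted p = 0.472), and Cyp2b10 had 2.54 (SE 0.778, limma adjusted p = 0.529). The estimates of both Cyp2b genes rest on values below 4 and are no bounds.

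A prior variance that depends on mean expression was not the main setting. An earlier self-test of these data found its false calls above the nominal share. With that prior, the same limma model gave Cyp2b9 an adjusted p of 0.0279 and Cyp1a2 one of 0.0298. Cyp2b9 was measured only through its high-fat arrays and had to differ with diet, so its p-value is given as a description. These were the 2 P450 probe sets past the threshold, both higher, with 0 lower, against 0.147% and 0.178% of all, and with 10 higher and 2 lower at an unadjusted p under 0.05, against 10.7% of all in either direction. For clodronate, 0 P450 probe sets rose and 0 fell in the limma model, against 0% and 0.0675% of all, and 0 had an unadjusted p under 0.05, against 4.6% of all. With the mean-dependent prior 0 rose and 0 fell, against 0.0123% and 0.442% of all, and 2 had an unadjusted p under 0.05, against 3.82%. A difference between the 2 injections in the diet effect has no residual in this design and was not tested.

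The regulators of these genes were set beside them from lists chosen with earlier results of these data known. Nr1i3, which encodes CAR, was at 9.08 in the high-fat clodronate pool and 9.26 in the high-fat PBS pool, against 8.75 in the low-fat clodronate pool and 8.35 in the low-fat PBS pool. Ahr was at 9.39 and 9.36 in the high-fat clodronate and PBS pools, against 9.01 and 8.84 in the low-fat clodronate and PBS pools. Both receptors were higher on each high-fat array than on either low-fat array, Nr1i3 by 0.33 log2 units with clodronate and 0.91 with PBS, and Ahr by 0.38 and 0.52. Nr1i2, which encodes PXR, was at 7.28 and 7.19 in the high-fat clodronate and PBS pools. In the low-fat clodronate and PBS pools it was at 6.93 and 7.06. This receptor too was higher on each high-fat array than on either low-fat array, by 0.35 log2 units with clodronate and 0.13 with PBS. Ppargc1a, a coactivator of fasting metabolism, was lower on the high-fat diet, by -0.62 with clodronate and -0.92 with PBS on the log2 scale. Of the 14 measured regulators, 0 passed the adjusted threshold in limma for either term. For diet 5 had an unadjusted p under 0.05, against 9.23% of all measured probe sets.

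Among 17 measured other targets of CAR, PXR and Ahr, such as transporters and conjugating enzymes, the diet difference passed 1.5-fold upwards in 1 and downwards in 2 with clodronate, and in 3 and 0 with PBS. Of all measured probe sets, 1.66% and 5.71% did so with clodronate, and 2.32% and 1.53% with PBS. Abcc3, an exporter of conjugates, was 0.64 higher with clodronate and 0.68 higher with PBS, and Gadd45a, a stress-response gene, 0.31 and 0.68. The glutathione transferases Gstm2 and Gstm3 had -0.61 and -0.63 with clodronate and -0.29 and -0.31 with PBS. The list's medians were 0.05 and 0.19, and 0 of its genes passed in limma for either term. For diet 6 had an unadjusted p under 0.05, against 9.23% of all measured probe sets.

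Alas1, the rate-limiting enzyme of haem synthesis, was at 11.01 in the high-fat clodronate pool and 11.44 in the high-fat PBS pool, against 11.34 in the low-fat clodronate pool and 10.85 in the low-fat PBS pool. It was highest in the high-fat PBS pool and lowest in the low-fat PBS pool, with a diet difference of -0.32 with clodronate and 0.59 with PBS. Of the 9 measured haem synthesis genes, 0 were 1.5-fold apart between the diets with clodronate, and 1, Alas1, was higher in the high-fat PBS pool than in the low-fat PBS pool. At that size 2.32% of all measured probe sets were higher in the PBS pair. Between the diets with clodronate, 1.66% were higher and 5.71% lower. Slc25a38, a mitochondrial glycine carrier of the same pathway, was at -0.64 with clodronate on the high-fat diet and 0.34 on the low-fat diet. Of the 6 measured redox partners and membrane helpers, 0 were 1.5-fold apart in any pair, where 12.7% of all measured probe sets were in at least 1. Por, the main electron donor of these enzymes, is not analysed here. Neither list had a gene that passed in limma, and 0 of their genes had an unadjusted p under 0.05 for either term.

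**Figure D5:**
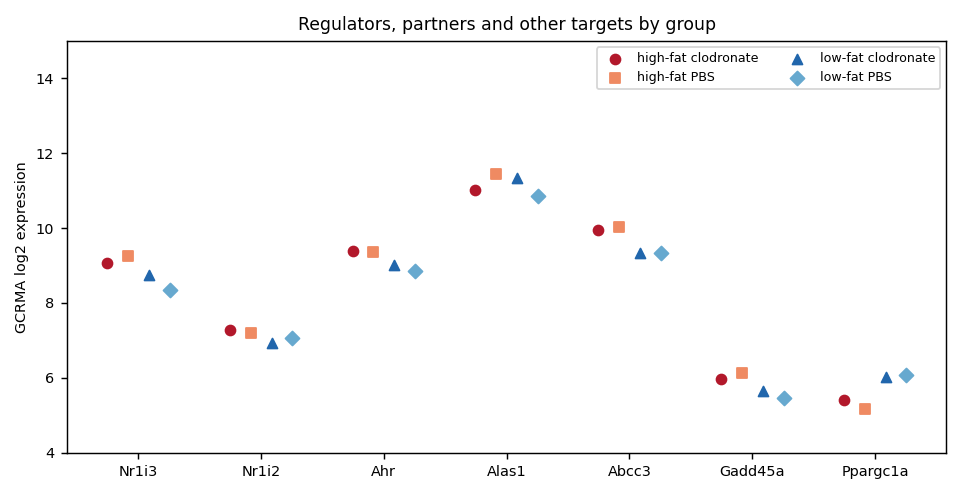
GCRMA log2 expression (vertical axis) of the receptors Nr1i3, Nr1i2 and Ahr, the haem enzyme Alas1, the targets Abcc3 and Gadd45a and the coactivator Ppargc1a, with 1 point per pooled array. Nr1i3, Nr1i2, Ahr, Abcc3 and Gadd45a are higher on both high-fat arrays than on both low-fat arrays, and Ppargc1a is lower.

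Of the 8 measured growth hormone and sex-dependent regulators, 4 were 1.5-fold or more higher with clodronate on the low-fat diet and 0 lower. Of all measured probe sets 2.44% were higher and 1.38% lower in that pair. On the high-fat diet 0 of the 8 were higher and 2 (Cish and Socs2) lower with clodronate, against 0.718% and 2.95% of all. With diet 1 was higher and 3 lower in the clodronate pools, against 1.66% and 5.71%, and 1 and 0 in the PBS pools, against 2.32% and 1.53%. Cish and Socs2, feedback inhibitors that STAT5 switches on, were at 4.80 and 7.06 in the high-fat clodronate pool, 5.58 and 7.74 in the high-fat PBS pool, 7.17 and 9.22 in the low-fat clodronate pool and 5.44 and 8.12 in the low-fat PBS pool. Both were highest in the low-fat clodronate pool, as were Onecut1, at 6.94 there against 5.67 in the low-fat PBS pool, and Stat5a, at 5.03 against 4.22. Cyp2b9 and Cyp2b10 were below 4 in both low-fat pools. Ghr, the growth hormone receptor, and Stat5b were at -0.11 and -0.05 in the same pair. Bcl6, a repressor that opposes STAT5b at sex-dependent genes, had diet differences of 0.67 with clodronate and 0.67 with PBS. Of the 8 genes, 0 passed in limma for either term. For diet 1 had an unadjusted p under 0.05, against 9.23% of all measured probe sets. The part of these genes in the P450 differences was not tested.

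Markers of other cells and states were read over the same arrays. The 10 measured hepatocyte markers had median differences of -0.03 with diet in the clodronate pools, -0.01 with diet in the PBS pools, -0.03 with clodronate on the high-fat diet and -0.01 on the low-fat diet. The macrophage markers had medians of 0.00 with diet in the clodronate pools and -0.12 in the PBS pools, and 6 of 16 fell with clodronate in limma, or 15 of 16 with the mean-dependent prior. The 19 measured acute phase genes, made by hepatocytes in inflammation, had medians of 0.15 with clodronate on the high-fat diet and 0.24 on the low-fat diet, and -0.09 with diet in the clodronate pools and 0.09 in the PBS pools. Orm2 was at 2.93 with clodronate on the high-fat diet and 1.12 on the low-fat diet, and Lcn2 at 0.69 and 2.74. Of the acute phase genes 0 passed in limma. Where 4.6% of all measured probe sets had unadjusted p under 0.05 for clodronate and 9.23% for diet, 6 and 2 of these genes did. With the mean-dependent prior 1 of them, Saa1, rose for both terms in limma (adjusted p = 0.0131 for clodronate and 0.0172 for diet).

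The 11 measured pericentral genes other than P450s had medians of 0.02 with diet in the clodronate pools and 0.19 in the PBS pools, and the 11 measured periportal genes 0.01 and 0.04. With clodronate the pericentral medians were -0.06 on the high-fat diet and 0.17 on the low-fat diet, and the periportal ones -0.05 and 0.03. The pericentral gene Lgr5, a receptor for R-spondins, was at -0.74 with clodronate on the high-fat diet and 0.75 on the low-fat diet, both bounds because one array of each pair was below 4. The periportal gene Aldh1b1 was at 0.20 and -0.11. The 12 endothelial markers had medians with diet of -0.13 in the clodronate pools and -0.04 in the PBS pools, and the 10 measured stellate cell markers -0.07 and -0.03. With clodronate the endothelial medians were -0.05 on the high-fat diet and 0.10 on the low-fat diet, and the stellate ones 0.00 and 0.10. Among lymphocyte markers 1 gene was measured, Ighm, an immunoglobulin heavy chain, which was 2.02-fold higher with clodronate on the high-fat diet and 1.58-fold on the low-fat diet. Among cholangiocyte markers 1 gene was measured, Sox9, at -0.09 with clodronate on the high-fat diet and -0.42 on the low-fat diet, both near the floor. The part of any of these in the P450 differences was not tested.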

How the data were processed

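The deposited values were log2 expression per probe set. The submitters' processing notes name GCRMA 2.24.1, which corrects background with a sequence-based model, brings arrays to 1 distribution and summarises probes. Gene names came from the platform annotation, in which 34958 had 1 symbol, 932 several and 9211 none. Each gene was described by its probe set with the highest mean.

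Differences between arrays were formed after values below 4 were set to 4 and counted at 2-fold and 1.5-fold over the 16298 probe sets at 4 or more on at least 1 array. limma 3.58.1 in R 4.3.3 fitted diet plus injection, with Benjamini-Hochberg adjustment. On simulated data for clodronate with 16298 probe sets it recovered 1.15% of 2-fold and 76.2% of 4-fold changes, with 5.57% false calls. The simulated noise was drawn from the fitted prior, with no diet-by-injection effect. The model's assumptions thus held by construction, and the false share is no check of error control on the real arrays. Genes 1.5-fold apart in a pair, a few standard members and up to 4 genes per list could be named. The members, lists, rules and prior were chosen with earlier results of these data known. RefSeq tables supplied names and promoter windows. The number of arrays limits the precision. Alternatives were other floors, scalings, filters, priors and probe sets.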

Additional observations from a re-analysis of the deposited data

Results flagged for a closer look

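A probe set annotated with 2 symbols, both of family 2, lies outside the rule of 1 symbol and so in no comparison above, yet its signal differed with diet. It was at 12.12 in the high-fat clodronate pool and 12.09 in the high-fat PBS pool, against 11.04 in the low-fat clodronate pool and 11.23 in the low-fat PBS pool. The log2 difference was 1.08 with clodronate and 0.86 with PBS, both above those of Cyp1a2. Which of its genes gave the signal cannot be told apart, and there is no replicate check. A second probe set with 2 symbols of the required form was near the floor, at 4.155 and 4.31 in the high-fat clodronate and PBS pools. In the low-fat clodronate and PBS pools it was at 3.81 and 4.38. Its diet differences were 0.15 with clodronate and -0.08 with PBS.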

How the results depend on the processing

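With a floor of 5, 0 P450 probe sets were 2-fold lower with clodronate on the high-fat diet, and the 2-fold higher count between the diets was 0 with clodronate and 1 with PBS, because the floor lowers the bounds of Cyp2b9 and Cyp2b10. After centring each array on its median, the median P450 diet difference with clodronate was 0.25, and that of all measured probe sets was 0.02 in place of -0.09. In that comparison 62 of all measured probe sets were 2-fold higher and 139 lower, against 85 and 87 after centring or quantile normalization. With the mean-dependent prior, whose false calls were above the nominal share in an earlier self-test, 2 P450 probe sets rose with diet in limma. Over all probe sets, limma called 11 lower with clodronate, but 72 lower and 2 higher with that prior, 39 with 1 probe set per gene and 0 among those at 4 or more on all arrays; for diet it called 0, but 24 higher and 29 lower with that prior. No called value changed sign under the alternatives run, while the uncalled signs of Cyp2d13, Cyp2d22 and Cyp2j6 depended on the probe set, as given above. No paired analysis was possible because each group had 1 array, and leaving out an array leaves no residual degrees of freedom. Signals near 4 limit what can be said of Cyp2b9, Cyp2b10, Cyp2d40 and Cyp2j9.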
